A study of Mus musculus with 21 samples.

Results

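The genes described here form the axis around the let-7 microRNAs in mouse embryonic stem (ES) cells: Lin28a, Lin28b, Trim71, Hmga1, Hmga2, Igf2bp1, Igf2bp2 and Igf2bp3. These 8 genes were taken by symbol from the 53796 genes listed in each of 3 expression tables. The rule did not use their values, but the list was drawn up with earlier results of these data known. All 8 had a mean of at least 1 FPKM (fragments scaled by transcript length and library size) in both knockout tables and were tested there, among 13153 genes in LIF and 12770 in the differentiated cells. The study asked how loss of Dot1l, the enzyme that methylates histone H3 at lysine 79, altered the transcriptome of ES cells and of their differentiating progeny.

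RNA was measured in 15 libraries, 3 in each of 5 groups, all from ES cells of strain V6.5. The ES cell group carries the genotype label Cdk1as/as, the analog-sensitive form of the kinase Cdk1, although the series design speaks of wild-type cells. The control LIF and control Wnt groups are labelled WT and their titles name a control guide RNA, and the KO LIF and KO Wnt groups are labelled Dot1l KO. Cultures in LIF (leukemia inhibitory factor, 100 U/ml with serum) sat on a feeder layer of mouse embryonic fibroblasts whose division had been blocked. For differentiation, cells spent 2 days on gelatin in N2B27 medium with the kinase inhibitor Y-27632 and then received Wnt3a at 50 ng/ml together with activin A at 10 ng/ml, usually for 24 h, which is called the Wnt condition here. Whether the KO cells were 1 clone or a pool, and whether replicates came from separate cultures, is not stated in the labels, so the p-values measure only the spread between these libraries.

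Lin28a and Lin28b are RNA-binding proteins that hold back the maturation of let-7 in undifferentiated cells: they bind the let-7 precursor and recruit enzymes that add uridines to its end, which leads to its decay. Mature let-7 in turn represses mRNAs that match its seed, among them those of Lin28a and Lin28b themselves, of Trim71, a ubiquitin ligase family member that silences mRNAs of differentiation, of Hmga2, a chromatin protein of fetal growth, and of the Igf2bp family, which binds and stabilizes mRNAs. ES cells are known for high Lin28a and little mature let-7. The mouse let-7 family shares its seed, bases 2 to 8 of the mature microRNA. In RefSeq (GRCm38.p6), 10 of the 11 let-7 and miR-98 arms named 5p or without an arm suffix carry GAGGUAG there. Of all 1679 mature mouse sequences in that table, 11 have this seed. The following arms are shown because the seed, in capitals, is what joins the targets into one axis. Among the 11 arms counted, let-7j is the one whose seed differs.
mmu-let-7a-5p: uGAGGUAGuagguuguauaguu
mmu-let-7b-5p: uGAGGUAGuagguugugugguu
mmu-let-7g-5p: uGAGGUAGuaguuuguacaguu
mmu-let-7i-5p: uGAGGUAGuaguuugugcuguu
mmu-miR-98-5p: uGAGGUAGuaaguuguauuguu
mmu-let-7j: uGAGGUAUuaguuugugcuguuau

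The let-7a-5p arm shown lies at chr13:48538239-48538260 on the minus strand, let-7b-5p at chr15:85707325-85707346 on the plus strand, let-7g-5p at chr9:106178846-106178867 on the plus strand and let-7i-5p at chr10:122985698-122985719 on the minus strand. The miR-98-5p arm lies at chrX:151913229-151913250 and let-7j at chr3:140028281-140028304, both on the plus strand. The expression tables hold 12 genes of let-7 and miR-98 precursors, and each is listed at 0 in all 15 libraries. Of 1192 microRNA genes in the tables, 116 had a value above 0 in any library. Mature let-7 is not among the measurements used here, and only the mRNAs around it are described.

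The labels were first set against marker genes. Dot1l itself was lower in the KO libraries of LIF, at 11.2, 8.90 and 10.8 FPKM against 21.2, 20.6 and 24.6 in the controls (log2 difference −1.04 ± 0.11 SE, limma adjusted p = 0.0178). With differentiation it stood at 13.5, 12.9 and 14.7 FPKM in the KO against 18.5, 17.7 and 19.1 in the controls (−0.40 ± 0.07 SE, limma adjusted p = 0.00462), so its mRNA was reduced and not lost. The ES cell libraries, which carry no Dot1l KO label, held Dot1l at 14.5, 13.7 and 12.9 FPKM in a separately scaled table. These values lay nearer to those of KO LIF than to those of control LIF. The labels do not give the edited site. All 7 ES cell markers were above 1 FPKM in every library, and the summed level of 7 primitive streak markers was 4.63 to 5.91 FPKM in the 9 libraries kept in LIF against 938 to 1335 in the 6 differentiated ones. One library stood apart: Mir6236 held 28.6% of all summed FPKM in KO LIF replicate 3, against 5.25% to 8.31% in the remaining 5 LIF libraries of the KO table. The sequencing depth is unknown, since the files give no counts.

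**Figure D1:**
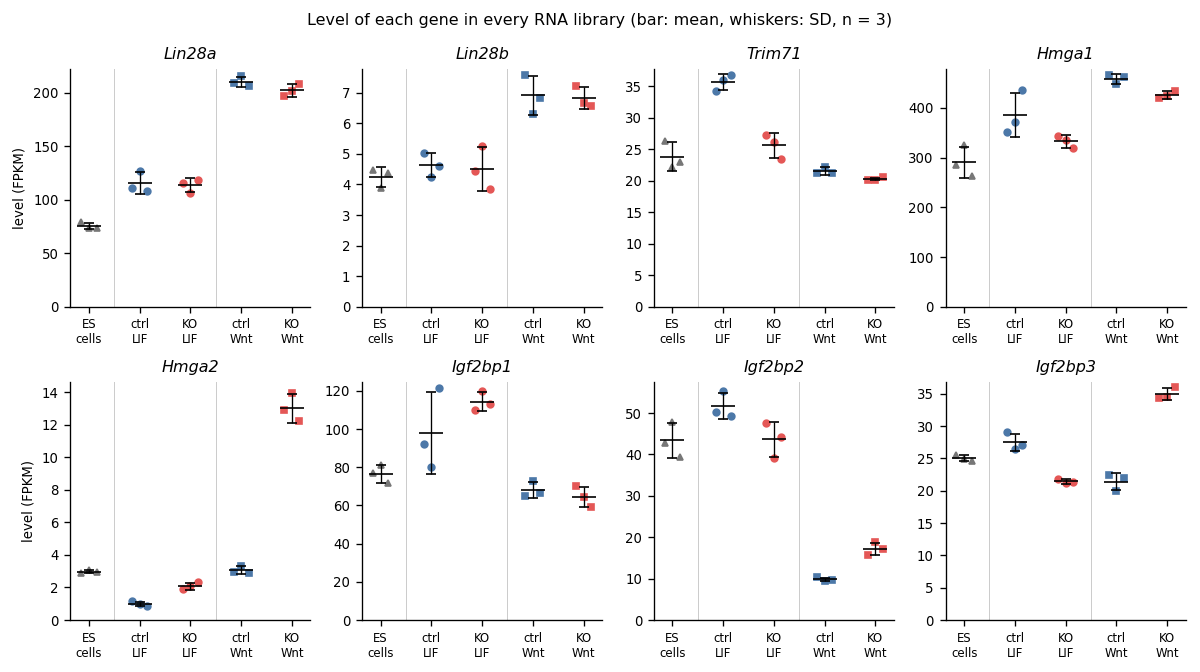
Level of each of the 8 genes (FPKM, linear axis from 0) in every RNA library of the 5 groups, with the mean (long bar) and SD (whiskers) of 3 libraries. The points show Hmga2, Igf2bp2 and Igf2bp3 higher in the KO than in the control libraries in the Wnt condition, Trim71 and Igf2bp3 lower in the KO in LIF, and Lin28a and Lin28b overlapping in both conditions; the vertical lines part the 3 tables, which were scaled separately.

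The axis genes spanned a wide range of levels. In control LIF cells the order ran from Hmga1 (386 ± 44.2 FPKM, SD, n = 3) through Lin28a (115 ± 10.2), Igf2bp1 (97.9 ± 21.4), Igf2bp2 (51.7 ± 3.13), Trim71 (35.7 ± 1.26), Igf2bp3 (27.5 ± 1.35) and Lin28b (4.62 ± 0.39) to Hmga2 (0.983 ± 0.15). Lin28a and Igf2bp1 overlapped in that order and the other neighbours did not. Hmga1 lay above 97.8% of the genes with at least 1 FPKM in the group and Lin28a above 91.3%, whereas Lin28b lay above only 26.8%. In the ES cell libraries the neighbours Igf2bp1 and Lin28a overlapped, as did Igf2bp3 and Trim71, and Hmga2 was again the lowest at 2.97 ± 0.094 FPKM.

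The order differed in the differentiated cells. In the control Wnt libraries Hmga1 (458 ± 9.72 FPKM) and Lin28a (210 ± 4.64) led, followed by Igf2bp1 (68.1 ± 3.99), Trim71 (21.5 ± 0.574), Igf2bp3 (21.4 ± 1.34), Igf2bp2 (9.82 ± 0.435), Lin28b (6.91 ± 0.651) and Hmga2 (3.05 ± 0.242). Trim71 and Igf2bp3 overlapped there and no other neighbours did. In the KO Wnt libraries no neighbours overlapped, and Hmga2, the lowest of the 8 in the other 4 groups, stood above Lin28b. The KO Wnt order ended with Igf2bp3 at 34.9 ± 0.931, Trim71 at 20.3 ± 0.212, Igf2bp2 at 17.2 ± 1.49, Hmga2 at 13.0 ± 0.89 and Lin28b at 6.82 ± 0.351 FPKM.

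Set side by side across the separately scaled tables, with no test, the axis did not move as one between LIF and differentiation. The control mean of Lin28a was 1.82 times as high in the Wnt condition as in LIF, that of Lin28b 1.50 times, that of Hmga1 1.19 times and that of Hmga2 3.10 times. The other members were lower in the differentiated controls. Igf2bp2 was 5.26 times as high in LIF as in the Wnt condition, Trim71 1.65 times, Igf2bp1 1.44 times and Igf2bp3 1.28 times. In bulk RNA, fewer cells of a type and less RNA per cell cannot be told apart.

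The Lin28 mRNAs of KO and control libraries overlapped in both conditions. Lin28a, the main Lin28 protein of ES cells, stood at 111, 127 and 108 FPKM in control LIF and at 116, 107 and 119 in KO LIF. In the Wnt condition it stood at 210, 215 and 206 FPKM in the control and at 197, 202 and 209 in the KO. The groups overlapped in both tables, and the log2 differences of −0.02 (95% interval −0.21 to 0.17, limma adjusted p = 0.914) and −0.06 (−0.15 to 0.04, adjusted p = 0.299) did not pass the threshold of 0.05. The ES cell libraries held 79.2, 73.8 and 73.9 FPKM.

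Lin28b, the paralog that binds the primary let-7 transcript in the nucleus, was far lower throughout. Its control LIF libraries held 5.02, 4.24 and 4.60 FPKM and its KO LIF libraries 4.43, 5.26 and 3.84. Its control Wnt libraries held 7.59, 6.29 and 6.84 FPKM and its KO Wnt libraries 7.22, 6.66 and 6.57. Both pairs of groups overlapped, with log2 differences of −0.03 (95% interval −0.34 to 0.27, limma adjusted p = 0.896) in LIF and −0.01 (−0.24 to 0.21, adjusted p = 0.916) in the Wnt condition. In ES cells it was at 4.48, 3.88 and 4.37 FPKM. Lin28b made up 3.18% to 5.31% of the summed Lin28 FPKM as group means, the most in the ES cell libraries.

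The Lin28a value in the Wnt condition changed sign with the scaling. The median log2 difference in the Wnt condition was −0.55 over the decile of tested genes with the highest level, which holds Lin28a and Hmga1, against −0.08 over all genes. With quantile normalization the Lin28a difference in the Wnt condition became 0.41 (limma adjusted p = 0.000738), and with the trend along gene span and level removed it became 0.38 (adjusted p = 0.00096). Lin28b came to −0.33 (limma adjusted p = 0.0348) with that trend removed and stayed short of the threshold in its 13 other alternatives in that table.

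Trim71, which the Lin28 and let-7 pair controls and which itself silences mRNAs of differentiation, fell in the KO cells in LIF. Its level was 34.3, 35.9 and 36.8 FPKM in control LIF against 27.3, 26.1 and 23.4 in KO LIF, and the groups did not overlap (log2 difference −0.47 ± 0.07 SE, limma adjusted p = 0.0312). The ES cell libraries held 26.4, 22.2 and 22.9 FPKM, nearer to the KO than to the control LIF values, in a table scaled separately. In the Wnt condition the KO libraries held 20.2, 20.1 and 20.5 FPKM against 21.2, 22.2 and 21.2 in the control, a difference of −0.08 (95% interval −0.21 to 0.05, limma adjusted p = 0.238). The KO effect on Trim71 differed between the conditions by 0.38 ± 0.09 SE (limma interaction, adjusted p = 0.0058), the KO being relatively higher in the Wnt condition.

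Across all genes, 4.41% passed the threshold in LIF, 0.958% higher and 3.45% lower in the KO, against 2 of the 8 axis genes, Trim71 and Igf2bp3, both lower. The KO and control libraries did not overlap for 5 of the 8 genes, against 31.2% of all genes. Both LIF calls were narrow: each was lost when any 1 of the 6 libraries was left out, with adjusted p of 0.0679 to 0.113 for Trim71 and 0.0788 to 0.123 for Igf2bp3, when 1 to 40 genes of the whole table remained called. Without KO LIF replicate 3, the library with the high Mir6236 share, the limma log2 difference was −0.40 for Trim71 (adjusted p = 0.0928) and −0.34 for Igf2bp3 (adjusted p = 0.123). In the authors' deposited table Trim71 had a q-value of 0.00196 and Igf2bp3 of 0.151 in LIF.

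**Figure D2:**
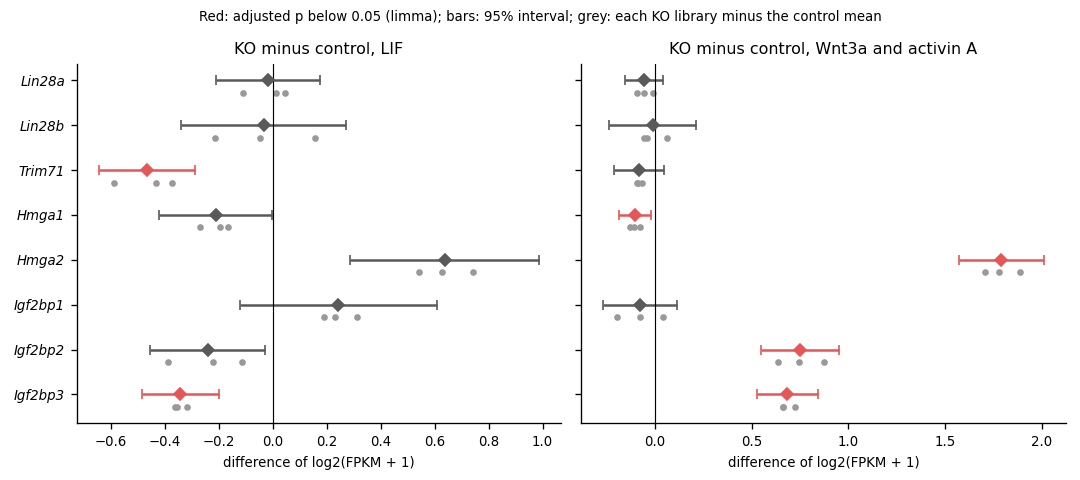
Difference between KO and control on the log2(FPKM + 1) scale for each gene in LIF (left) and in the Wnt condition (right); diamonds are limma estimates with 95% intervals, red where the adjusted p is under 0.05, and grey points are the 3 KO libraries minus the control mean. Hmga2, Igf2bp2 and Igf2bp3 lie at 1.79, 0.75 and 0.68 on the right, and Trim71 and Igf2bp3 at −0.47 and −0.34 on the left.

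The differentiated KO cells held more mRNA of 3 let-7 targets, Hmga2, Igf2bp2 and Igf2bp3. Of all genes in the table, 49.1% passed the threshold, 19.6% higher and 29.5% lower, against 3 higher axis genes and 1 lower, Hmga1. The 4 called of 8 are thus near the background share. The groups did not overlap for 5 of the 8 genes, against 60.1% of all genes. The size of the Hmga2 difference was less common: 1.70% of all tested genes had a larger absolute difference, against 19.3% for Igf2bp2 and 23.5% for Igf2bp3.

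Hmga2, an architectural chromatin protein that is abundant in embryonic tissue and a classic let-7 target, had the widest range of the 8 relative to its level. It was lowest in control LIF, at 1.14, 0.971 and 0.837 FPKM, and stood at 1.88, 2.06 and 2.31 in KO LIF. In the differentiated cells it was at 2.97, 3.32 and 2.86 FPKM in the control and at 12.9, 13.96 and 12.2 in the KO, 4.27 times the control mean. Control and KO did not overlap in either table. The log2 difference was 1.79 ± 0.09 SE in the Wnt condition (limma adjusted p = 7.77e-05) and 0.64 in LIF (95% interval 0.29 to 0.99, limma adjusted p = 0.0658), which missed the threshold. With a control LIF mean of 0.983 FPKM, Hmga2 entered the LIF test only through the KO libraries. The log2(FPKM + 1) scale understates the change of such a low gene, and the LIF means stood in a ratio of 2.12.

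The authors' deposited table gives Hmga2 a q-value of 0.00196 in LIF and of 0.00021 in the Wnt condition. The interaction of 1.15 ± 0.14 SE (limma adjusted p = 0.000171) put the Hmga2 difference higher in the Wnt condition than in LIF. The ES cell libraries, labelled Cdk1as/as, held 2.92, 3.08 and 2.92 FPKM, 3.03 times the control LIF mean in a separately scaled table. The summed level of 10 feeder and fibroblast markers had the same order over control LIF, KO LIF and ES cells, but not in the Wnt condition. It was 39.3 to 60.0 FPKM in control LIF, 73.8 to 81.5 in KO LIF and 151 to 203 in ES cells. In the Wnt condition it was 291 to 323 FPKM in the control and 124 to 133 in the KO, opposite to Hmga2. Without Tagln, the other 9 summed there to 39.0 to 42.6 FPKM in the control and 48.6 to 51.8 in the KO. Tagln held 98.9 to 136 FPKM of the ES cell sum. Thy1 was lowest in ES cells, at 9.19 to 12.1 FPKM against 12.5 to 21.3 in control LIF. The part of these markers in the Hmga2 values was not tested. As a share of the summed Hmga1 and Hmga2 FPKM, Hmga2 held 0.662% ± 0.0661 (SD, n = 3) in control Wnt and 2.97% ± 0.227 in KO Wnt, and the ranges did not overlap.

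Hmga1, the paralog that ES cells express at high level, held 352, 371 and 436 FPKM in control LIF and 343, 336 and 319 in KO LIF, groups that lay side by side without overlap (log2 difference −0.21, 95% interval −0.42 to −0.0013, limma adjusted p = 0.201). In the Wnt condition it fell from 465, 447 and 462 FPKM in the control to 419, 425 and 434 in the KO (−0.10 ± 0.03 SE, limma adjusted p = 0.0473), a direction that turned with 2 alternatives. Of 14 alternatives, 11 lost this call in the same direction and 2 turned it: the value was 0.40 (adjusted p = 0.000551) with quantile normalization and 0.53 (adjusted p = 0.000254) with the trend along span and level removed, both higher in the KO. The authors' deposited table gives Hmga1 a q-value of 0.450 in the Wnt condition. In ES cells Hmga1 was at 284, 324 and 263 FPKM. Hmga1b, a near-identical copy that can share reads with Hmga1, stood at 58.6 ± 2.08 FPKM in control Wnt and 46.2 ± 2.96 in KO Wnt (log2 difference −0.34 ± 0.06 SE, limma adjusted p = 0.00595). AI413582, which overlaps the Hmga1 locus, stood at 20.6 ± 1.97 and 9.81 ± 0.617 FPKM in the same groups (−0.99 ± 0.09 SE, adjusted p = 0.000409). The sources used here do not say how reads were divided among these genes.

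The 3 Igf2bp genes, RNA-binding proteins named for the insulin-like growth factor 2 mRNA, parted from one another. Igf2bp1 held 92.0, 80.0 and 122 FPKM in control LIF and 110, 120 and 113 in KO LIF, overlapping groups with a wide control spread (log2 difference 0.24, 95% interval −0.12 to 0.61, limma adjusted p = 0.378). In the Wnt condition it held 65.1, 72.6 and 66.6 FPKM in the control and 70.0, 64.4 and 59.2 in the KO (−0.08, 95% interval −0.27 to 0.11, adjusted p = 0.439). The difference of its KO effect between the conditions missed the threshold in the limma interaction (−0.32, adjusted p = 0.187). That difference passed without control LIF replicate 3, the library at 122 FPKM (−0.49, adjusted p = 0.00963). In ES cells Igf2bp1 was at 76.9, 81.1 and 71.8 FPKM, from just under to just over the lowest control LIF library.

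Igf2bp2 was the member whose differentiated controls lay farthest below its LIF controls, and it rose in the KO of the Wnt condition. It held 50.4, 55.2 and 49.4 FPKM in control LIF and 47.7, 39.2 and 44.1 in KO LIF, side by side without overlap (log2 difference −0.24, 95% interval −0.45 to −0.03, limma adjusted p = 0.162). In the differentiated cells it held 10.3, 9.54 and 9.60 FPKM in the control against 15.8, 18.8 and 17.1 in the KO, which was 1.76 times the control mean (0.75 ± 0.08 SE, limma adjusted p = 0.000745). The interaction was 0.99 ± 0.12 SE (limma adjusted p = 0.000151). The ES cell libraries, at 42.8, 47.8 and 39.5 FPKM, lay in the range of the LIF cultures, not of the differentiated ones.

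Igf2bp3 moved in opposite directions in the 2 conditions. In LIF it fell from 29.0, 26.4 and 27.05 FPKM in the control to 21.9, 21.2 and 21.3 in the KO (log2 difference −0.34 ± 0.06 SE, limma adjusted p = 0.0364). In the Wnt condition it rose from 22.4, 19.9 and 21.9 FPKM to 34.3, 34.4 and 36.0, which was 1.63 times the control mean (0.68 ± 0.06 SE, limma adjusted p = 0.000436). No library crossed into the other group in either table. The ES cell libraries held 25.5, 24.97 and 24.6 FPKM, between the control and KO values of LIF. In the authors' deposited table the q-value in the Wnt condition was 0.00021 for both Igf2bp2 and Igf2bp3. That of Igf2bp3 in LIF was 0.151. The LIF call of Igf2bp3 held in 2 of 14 alternatives, over which the difference ran from −0.37 to −0.25. The interaction was 1.03 ± 0.08 SE (limma adjusted p = 1.73e-05), with 38.3% of all 11783 genes tested in both tables passing that test, 17.6% with the KO relatively higher in the Wnt condition. Of the axis genes 4 of 8 passed it, and all 4, Trim71, Hmga2, Igf2bp2 and Igf2bp3, in that direction.

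The make-up of the family is given as shares, with no test. Igf2bp1 supplied 54.9% ± 6.04 (SD, n = 3) of the summed Igf2bp FPKM in control LIF, 63.7% ± 2.64 in KO LIF, 68.5% ± 2.38 in control Wnt and 55.2% ± 2.80 in KO Wnt. Igf2bp2 went from 29.5% ± 4.61 in control LIF to 9.90% ± 0.607 in control Wnt and stood at 14.8% ± 1.45 in KO Wnt. Igf2bp3 had 15.6% ± 1.74 in control LIF, 11.95% ± 0.22 in KO LIF, 21.6% ± 1.84 in control Wnt and 30.0% ± 1.84 in KO Wnt. Between KO and control, the LIF ranges of Igf2bp1 (49.5% to 61.4% against 61.3% to 66.5%) and of Igf2bp2 (24.9% to 34.2% against 21.7% to 26.6%) overlapped. The Igf2bp3 ranges in LIF did not, nor did those of any of the 3 in the Wnt condition. The sum of the family was 177 ± 18.8 FPKM in control LIF and 179 ± 0.83 in KO LIF, and 99.3 ± 2.36 and 117 ± 4.01 FPKM in control and KO Wnt. In the ES cell libraries the 3 shares were 52.8% ± 0.126, 29.9% ± 1.05 and 17.3% ± 0.965, of a sum of 145 ± 9.04 FPKM. Shares are ratios within a library and so do not change when a library is rescaled by 1 factor.

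**Figure D3:**
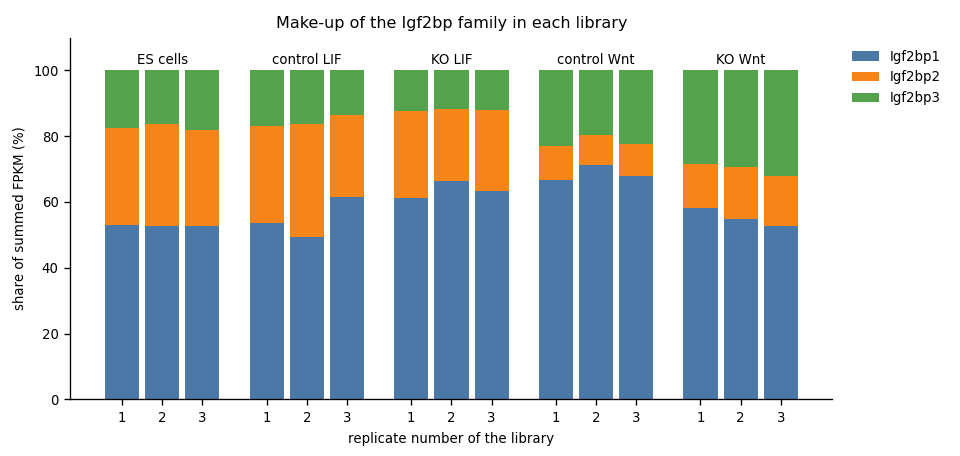
Share of the summed Igf2bp FPKM (%, stacked to 100) held by Igf2bp1, Igf2bp2 and Igf2bp3 in each of the 15 RNA libraries. Igf2bp2 has the smallest share in the 3 control Wnt libraries, and the Igf2bp3 share is highest in KO Wnt, with a group mean of 30.0%.

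The 3 genes that rose in the Wnt condition are long genes, and long genes as a whole were higher in those KO libraries. The median log2 difference was −0.50 in the decile of genes with the shortest span and 0.27 in the longest decile. Hmga2 (115 kb), Igf2bp3 (130 kb), Igf2bp2 (104 kb) and Lin28b (110 kb) lie in the 2 deciles with the longest spans, whose medians were 0.27 and 0.24. Hmga1 spans 7.10 kb and Lin28a 15.9 kb, and the medians of their deciles were −0.31 and −0.12. With the trend along span and level removed, the differences were 1.47 for Hmga2, 0.50 for Igf2bp2 and 0.56 for Igf2bp3 (limma adjusted p of 0.000256, 0.00404 and 0.00165). Trim71 (53.1 kb) then fell by 0.20 in the Wnt condition (adjusted p = 0.0259), and its interaction dropped to 0.18 (adjusted p = 0.105).

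**Figure D4:**
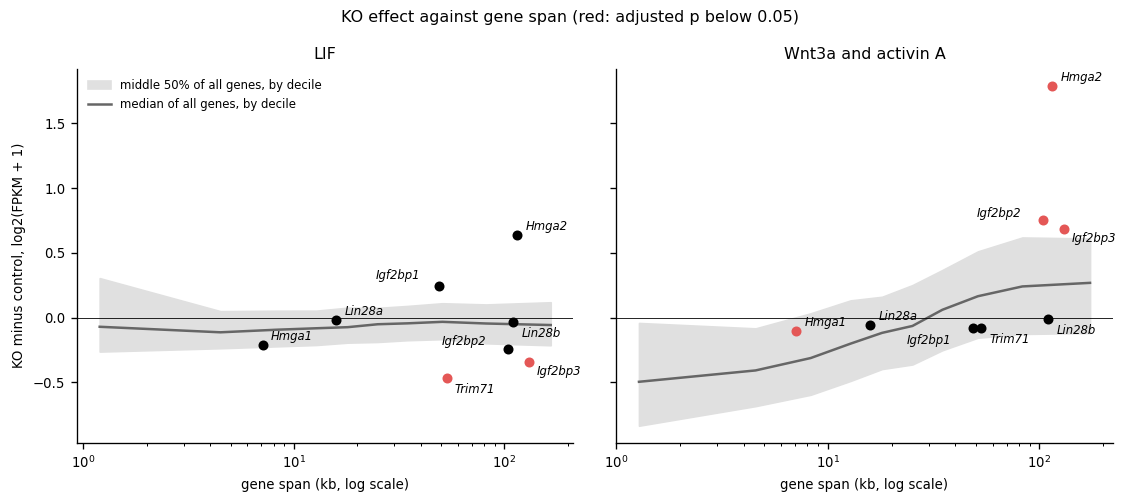
KO minus control difference on the log2(FPKM + 1) scale against the span of the gene on the genome (kb, log axis) for the 8 genes, in LIF (left) and in the Wnt condition (right); the line is the median of all tested genes per decile of span and the band their middle 50%. On the right the line climbs from −0.50 to 0.27, Hmga2 at 1.79, Igf2bp2 and Igf2bp3 lie above the band, and Lin28b lies inside it at −0.01.

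The remaining genes of the pathway were taken from lists of the machinery and of other targets. Their values were not adjusted for the trend along gene span and level that all genes showed in the Wnt condition. Of 12 genes of microRNA processing, none passed the threshold in LIF, and 6 were higher and 3 lower in the KO of the Wnt condition (median log2 difference 0.13, against −0.08 over all genes). Over all genes 4.41% passed in LIF, and 19.6% were higher and 29.5% lower in the Wnt condition. Xpo5, which exports precursors from the nucleus, stood at 22.8 ± 1.21 FPKM in the control and 37.8 ± 3.10 in the KO (0.70 ± 0.08 SE, limma adjusted p = 0.000771). Khsrp, which promotes let-7 maturation, rose by 0.60 (67.7 ± 2.02 to 103 ± 3.06 FPKM, adjusted p = 0.00024), and the Drosha cofactors Ddx17 and Ddx5 by 0.50 and 0.46. The 3 that fell, named after their values were seen, were the Dicer partner Tarbp2 (−0.36, limma adjusted p = 0.0328), Srrt (−0.35, adjusted p = 0.0138) and the RNA-binding Hnrnpa1 (−0.16, adjusted p = 0.0146). Of 6 tested genes listed for tailing or decay of the let-7 precursor, none passed in LIF. In the Wnt condition the poly(A) polymerase Papd5 rose (1.16, limma adjusted p = 9.37e-05) and the uridyl transferase Tut1 fell (−0.37, adjusted p = 0.00345). The other 4 did not pass there: Zcchc11 (−0.47, limma adjusted p = 0.0582), Dis3l2 (−0.23, 0.0851), Zcchc6 (−0.08, 0.687) and Papd4 (0.11, 0.773).

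Of 10 tested Argonaute and silencing complex genes, 6 were higher and none lower in the Wnt condition, with a list median of 0.73, where 19.6% of all genes were higher and 29.5% lower. The scaffold gene Tnrc6a went from 7.04 ± 0.866 to 21.2 ± 1.85 FPKM (1.47 ± 0.11 SE, limma adjusted p = 0.000192). Ago2, the Argonaute that cuts its targets, went from 5.88 ± 0.184 to 14.7 ± 0.854 FPKM (1.19, adjusted p = 0.000117), and the deadenylase scaffold Cnot1 and the helicase Ddx6 were higher by 1.20 and 1.02. In LIF, where 4.41% of all genes passed, 3.45% as lower in the KO, 1 of the 10 passed. The helicase Mov10 fell from 76.2 ± 4.87 to 56.3 ± 4.61 FPKM (−0.43, limma adjusted p = 0.045). With any 1 library left out, 1 to 40 of all genes remained called in LIF.

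Among other known let-7 targets, most of those called were higher in the KO of the Wnt condition, and all of those called in LIF were lower. In the differentiated cells 14 of 29 tested targets were higher in the KO and 3 lower, with a list median of 0.19. Together 17 of 29 were called, against 49.1% of all genes, 19.6% higher and 29.5% lower. Gnptab rose from 4.63 ± 0.102 to 13.2 ± 3.20 FPKM (1.31, limma adjusted p = 0.00155), the TGF-beta receptor gene Tgfbr1 rose by 0.86 and the transcription factor gene Plagl2 by 0.79, whereas Hras fell from 198 ± 5.28 to 89.1 ± 5.23 FPKM (−1.15, adjusted p = 7.05e-05). In LIF, where 4.41% of all genes passed, none of 30 was higher and 4 were lower: the cell cycle kinase Cdk6 (17.1 ± 1.28 to 10.7 ± 0.375 FPKM, −0.63, limma adjusted p = 0.0219), Myc (−0.47), Dna2 (−0.39) and Ddx19a (−0.28). Of 5 mRNAs known as Trim71 targets, none passed in LIF. With differentiation, Mbnl1 (0.990 ± 0.217 to 4.17 ± 0.744 FPKM) and Rbl1 rose by 1.37 and 0.53, and Plxnb2 (124 ± 5.24 to 51.5 ± 3.73 FPKM) and the cell cycle inhibitor gene Cdkn1a fell by 1.26 and 0.26, in limma with adjusted p of 0.00293 or lower. Mbnl1 entered this test only through the KO libraries, since its control mean was under 1 FPKM.

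Several cell-type markers also differed between KO and control libraries. In differentiation, 6 of 7 primitive streak markers and 5 of 5 tested endoderm markers were higher in the KO, 1 streak marker and 6 of 7 ES cell markers were lower, and both tested neural markers were lower. Of all genes, 49.1% passed there, 19.6% higher and 29.5% lower, and the streak marker Mesp1 entered the test only through the KO libraries. The summed level of the 7 ES cell markers was 2383 to 2543 FPKM in control Wnt and 1520 to 1636 in KO Wnt, and that of the 6 endoderm markers 79.2 to 88.1 and 155 to 169. In LIF the same ES cell sum was 5378 to 5460 FPKM in the control and 4547 to 4792 in the KO, with 6 of 7 markers lower, against 3.45% of all genes. No streak, endoderm or neural marker passed in LIF, of 2, 5 and 4 tested. Of the feeder and fibroblast markers, 2 of 6 tested were higher in KO LIF (Acta2 and Timp3), against 0.958% of all genes, and 4 of 7 were higher and 1, Tagln, lower in KO Wnt. All 10 of that list summed to 291 to 323 FPKM in control Wnt and 124 to 133 in KO Wnt. Without Tagln, which alone went from 249.7 to 281 FPKM down to 75.6 to 81.2, the other 9 summed to 39.0 to 42.6 and 48.6 to 51.8, higher in the KO. In LIF these 9 summed to 21.8 to 35.2 FPKM in the control, 44.2 to 47.2 in the KO and 52.2 to 66.3 in ES cells. Col1a1 was at 0.948 to 1.71 FPKM in control LIF, 2.97 to 5.55 in KO LIF and 6.12 to 11.2 in ES cells, and Acta2 at 4.68 to 6.28, 10.1 to 11.3 and 23.0 to 29.7. Thy1 instead was lowest in ES cells, at 12.5 to 21.3 FPKM in control LIF, 21.9 to 26.4 in KO LIF and 9.19 to 12.1 in ES cells. Lum was at 0 in every LIF and ES cell library, and Dcn reached at most 0.235 FPKM there. The part of these markers in the differences of the axis genes was not tested.

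Genes that share a locus with a member were checked as well. Malsu1 overlaps Igf2bp3 and moved the other way in the Wnt condition, from 67.8 ± 4.49 to 41.0 ± 1.31 FPKM (log2 difference −0.71 ± 0.06 SE, limma adjusted p = 0.000349). The genes overlapping Lin28a, Trim71 and Hmga2 reached at most 0.672 FPKM in any library. Mir3063, within Igf2bp1, reached 64.6 FPKM in 1 library, KO Wnt replicate 3. The sources used here do not say whether the counting used strand.

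The genes whose libraries deviated most like each member were taken over the 12 control and KO libraries, each set against the control mean of its own table. Hmga2 was nearest to Smurf2 (Pearson r = 0.989) and Tfap2c (0.989), and the Tfap2c differences were 0.46 in LIF and 1.28 in the Wnt condition. Igf2bp2 was nearest to Tpp1 (0.992) and Akt2 (0.987), Igf2bp3 to Spry4 (0.988) and Sfrp1 (0.987), and Trim71 to Zfp553 (0.983) and Uck2 (0.965). Lin28a and Lin28b had no gene as close, with Dcaf6 (0.891) and Gnpnat1 (0.792) first. Hmga1 was nearest to Zer1 (0.967) and Igf2bp1 to Patj (0.871). Between members, Igf2bp2 and Igf2bp3 were the closest pair (0.964), followed by Hmga1 and Trim71 (0.797). These values describe the same 12 libraries, which share groups and scaling, and carry no test.

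The 3 genes that rose together in the Wnt condition start from promoters of different make-up. The 250 bases before each start are shown for them, from RefSeq (GRCm38.p6), all read on the minus strand, with the GC box GGGCGG on either strand in capitals.
Hmga2 promoter: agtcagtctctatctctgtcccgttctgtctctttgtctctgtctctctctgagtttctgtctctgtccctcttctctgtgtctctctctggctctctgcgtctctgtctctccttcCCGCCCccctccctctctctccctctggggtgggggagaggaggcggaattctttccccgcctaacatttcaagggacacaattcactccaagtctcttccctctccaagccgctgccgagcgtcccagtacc
Igf2bp2 promoter: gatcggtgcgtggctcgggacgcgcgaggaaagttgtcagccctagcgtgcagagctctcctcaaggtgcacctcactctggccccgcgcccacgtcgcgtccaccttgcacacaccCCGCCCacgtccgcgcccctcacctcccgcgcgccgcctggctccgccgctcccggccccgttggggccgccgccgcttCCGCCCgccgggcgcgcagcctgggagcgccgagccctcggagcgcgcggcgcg
Igf2bp3 promoter: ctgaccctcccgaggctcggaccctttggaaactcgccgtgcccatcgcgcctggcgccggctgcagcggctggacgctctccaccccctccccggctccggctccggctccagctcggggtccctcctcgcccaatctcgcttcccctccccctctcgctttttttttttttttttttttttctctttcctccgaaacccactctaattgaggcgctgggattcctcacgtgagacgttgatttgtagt

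The Hmga2 window (chr10:120476470-120476719) held 8 CpG pairs and 56.4% G and C. The Igf2bp2 window (chr16:22163300-22163549) held 40 CpG pairs, more than 98.7% of all promoters, and 77.2% G and C. The Igf2bp3 window (chr6:49214955-49215204) held 21 CpG pairs and 60.4% G and C, and it lies inside the annotated span of the gene. Over 32851 mouse promoter windows of the same length the medians were 6 CpG pairs and 52.4%. The GC box, present in 32.7% of all windows, matched once in Hmga2, at 2 places in Igf2bp2 and not in Igf2bp3. The E-box CACGTG, in 6.02% of windows, matched once each in Igf2bp3 and Lin28b, and CCAAT, in 33.8%, matched once in the same genes. The TCF/LEF core forms CTTTGAA and CTTTGAT, in 4.46% and 3.21% of windows, were searched on both strands, and the first matched once in Lin28a. TATAAA, in 12.4%, matched in none of the 7 genes with a window. The Lin28a window (chr4:134018817-134019066) and the Lin28b window (chr10:45470202-45470451) also lie inside the annotated spans of their genes. A match here is a description of letters only.

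The members lie on 7 chromosomes in the RefSeq annotation of GRCm38.p6, all as protein-coding genes. Hmga2 (chr10:120361268-120476469), Igf2bp2 (chr16:22059009-22163299) and Igf2bp3 (chr6:49085218-49215469) are on different chromosomes. Lin28b (chr10:45376617-45486314) shares chromosome 10 with Hmga2. Lin28a lies at chr4:134003330-134019196, Trim71 at chr9:114511268-114564369, Hmga1 at chr17:27556574-27563672 and Igf2bp1 at chr11:95957163-96005944.

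**Figure D5:**
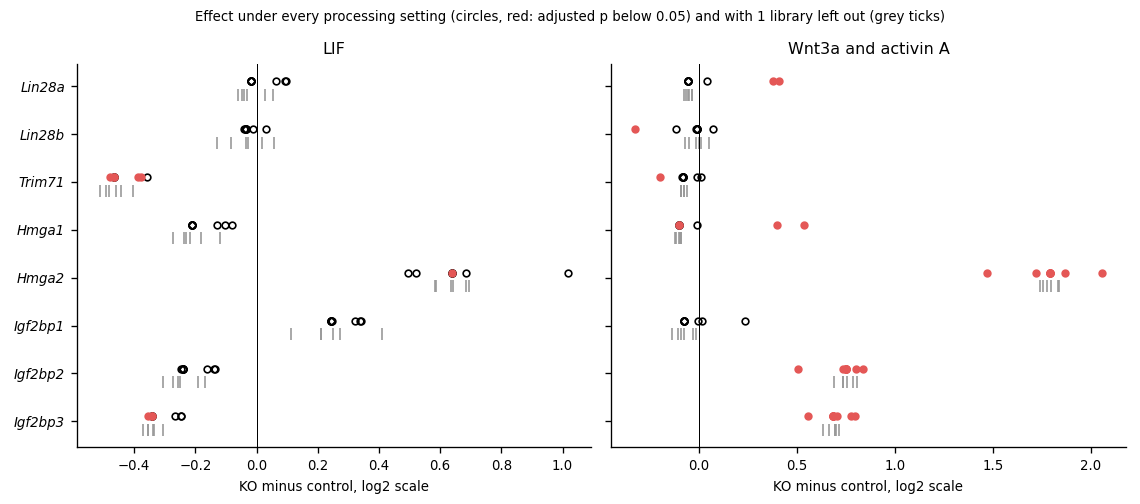
KO minus control difference of each gene under each processing setting (circles, red where the limma adjusted p is under 0.05) and with 1 library left out (grey ticks), in LIF (left) and in the Wnt condition (right), on a log2 scale. Hmga2, Igf2bp2 and Igf2bp3 are red under every setting on the right, while Lin28a and Hmga1 spread to both sides of 0 there.

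Of the results above, the rises of Hmga2, Igf2bp2 and Igf2bp3 in the Wnt condition passed in limma under each of the 14 alternatives run, between 1.47 and 2.06, between 0.50 and 0.84 and between 0.56 and 0.79. Hmga2 passed in LIF under 1 of 13 alternatives, the fit without a trend (adjusted p = 0.0422).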

How the data were processed

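The series holds 21 samples, of which the 15 RNA libraries were used. Sample titles gave the groups and replicate numbers. The deposited tables hold FPKM values that the authors computed for every gene and library. The KO tables also hold a p-value and a q-value from the authors. The submitters' processing notes name STAR 2.5.4a, Cufflinks 2.2.1 and Cuffdiff, and the builds mm9 and GRCm38, with no role given. The sources used here give neither the scaling between libraries nor the annotation release. Because FPKM is relative to library size, a change in abundant genes shifts the others.

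The KO tables were fitted one at a time on log2(FPKM + 1) values, using limma 3.58.1 under R 4.3.3 with a mean-variance trend. A gene needed a mean of 1 FPKM or more over the 6 libraries. Two-sided p-values were adjusted over all genes by Benjamini-Hochberg, and the threshold was 0.05. On this scale, changes of low genes are understated. The conditions were compared by an interaction term over 12 libraries. The fits were tested on simulated data. Depth is unknown. Steps in the lowest values gave only a rough relative depth, 0.626 to 1.30 times that of KO replicate 1 for LIF and 0.509 to 0.917 times for the Wnt condition, and low genes are less precise.

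The members and the 10 further lists were chosen with earlier results of these data known. Named were all 8 members, Dot1l, up to 4 list genes past the threshold with the largest change, the 2 genes most like each member, of which the first is given for some, and genes overlapping a member. Of 10 names in the list on tailing and decay, 6 are in the tables. Mir6236, Tarbp2, Srrt, Hnrnpa1, Zcchc11, Dis3l2, Zcchc6, Papd4, Mesp1 and the single feeder markers were named after their values were seen. RefSeq promoter windows matched 7 of the 8 members. Peak lists were not used here, because their genome build was not settled. Alternatives were another pseudocount, other filters and scalings, no trend, removal of the trend along gene span and level, the replicate number as a block, and leaving out each library.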

Additional observations from a re-analysis of the deposited data

Results flagged for a closer look

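The effect of the KO differed between the 2 conditions for 4 of the 8 genes, by a limma interaction term over 12 libraries with adjustment over 11783 genes, of which 38.3% passed. Each difference is the KO effect in the Wnt condition minus that in LIF, on the log2(FPKM + 1) scale. Igf2bp3 differed by 1.03, with estimates of −0.34 and 0.68, of which the LIF one passed in 2 of 14 alternatives. Hmga2 differed by 1.15, with estimates of 0.64 and 1.79. Igf2bp2 differed by 0.99, with estimates of −0.24 and 0.75. Trim71 differed by 0.38, with estimates of −0.47 and −0.08. The differences of Hmga2, Igf2bp2 and Igf2bp3 passed in every alternative run, 19, 20 and 20 of them, and that of Trim71 in 19 of 20.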

How the results depend on the processing

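In LIF, where 2 of the 8 genes passed, the number was 0 without the filter on low values, 0 with quantile normalization, 0 with the replicate block, 1 each with median-of-ratios rescaling, without a trend and with the trend along gene span and level removed, and 0 to 0 with any library left out. The replicate numbers did not pair the libraries (correlations of −0.00271 to 0.0426 in LIF and −0.0119 to 0.0621 in the Wnt condition). With the block, the 580 genes called in LIF became 0. The other LIF totals ran from 236 to 729, and from 1 to 40 with a library left out. In the Wnt condition, 4 genes passed, 7 with the trend along span and level removed, 5 with quantile normalization, 3 or 4 with the other settings and 3 to 3 with a library left out. For the difference between conditions, 4 passed, 6 with quantile normalization, 3 with a mean of at least 5 FPKM, where Hmga2 was not tested, and 4 to 5 with a library left out.

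Of 380 recomputed values of single genes, 311 kept direction and call, 34 lost the call, 6 gained one and 29 changed sign. With median-of-ratios rescaling the signs of Lin28a (0.0623) and Lin28b (0.0316) turned in LIF, and those of Lin28a (0.0389), Lin28b (0.0695), Trim71 (0.00744) and Igf2bp1 (0.0154) in the Wnt condition. With quantile normalization Lin28a became 0.0930 in LIF, Lin28a 0.405, Hmga1 0.397 and Igf2bp1 0.233 in the Wnt condition, and the differences 0.312 for Lin28a and −0.0811 for Lin28b. With the trend along span and level removed, Lin28a became 0.0957 in LIF, Lin28a 0.376 and Hmga1 0.534 in the Wnt condition, and the differences 0.280 and −0.319 for Lin28a and Lin28b. With a library left out, Lin28a ran from −0.0621 to 0.0535 and Lin28b from −0.130 to 0.0554 in LIF, Lin28b from −0.0702 to 0.0479 in the Wnt condition, and their differences from −0.109 to 0.00652 and from −0.0689 to 0.116. The cause was not tested. The share of calls higher in the KO was 21.7% in LIF, and 45.5%, 47.2% and 54.3% with these 3 settings; in the Wnt condition it was 39.9%, and 49.3%, 48.7% and 49.3%.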
